A study of Mus musculus with 5 samples.

Results

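The 10 genes described here encode the core of the cytosolic heat shock machinery: the transcription factor Hsf1, the HSP70 and HSP110 chaperones Hspa1a, Hspa1b, Hspa8 and Hsph1, the HSP90 chaperones Hsp90aa1 and Hsp90ab1, the HSP40 (J protein) cochaperones Dnaja1 and Dnajb1, and the kinase cochaperone Cdc37. They were chosen by name, and all 10 were found by symbol among the 39179 genes of the count table. All 10 also passed the filter on low counts, which kept 13000 genes. RNA came from TER119-positive erythroid cells sorted from the livers of C57BL/6 mouse embryos 14.5 days after conception. The 3 control libraries carried the genotype Csnk2b+/+ Vav+/Cre and the 2 KO libraries Csnk2bfl/fl Vav+/Cre. Both groups thus carry Cre recombinase driven by the Vav1 promoter, which is active throughout blood-forming cells, and the KO embryos alone carry the floxed allele of Csnk2b, which encodes CK2 beta, the regulatory subunit of the kinase CK2. The titles do not say whether each library holds 1 embryo or several, and p-values here reflect only how these samples vary.

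Heat shock proteins keep other proteins folded. HSP70 binds exposed hydrophobic stretches in cycles of ATP hydrolysis started by J proteins and ended by nucleotide exchange factors such as HSP110, and HSP90 takes over clients near their final fold, with CDC37 bringing protein kinases to it. HSF1 is held inactive by chaperones in unstressed cells and, when unfolded protein draws them away, forms trimers that bind heat shock elements, arrays of inverted GAA units, at the stress-inducible HSP genes. Hspa8 and Hsp90ab1 are known as the constitutive forms of their families, and Hspa1a and Hspa1b as the strongly inducible ones. In erythroblasts HSP70 is known to protect the transcription factor GATA1 from caspase cleavage. CDC37 is a known substrate of CK2, whose phosphorylation of it is needed for binding kinases. RNA levels do not report on phosphorylation or on protein.

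Hspa1a and Hspa1b are neighbours on the minus strand of chromosome 17 in build mm10. Hspa1a (ENSMUSG00000091971) lies at chr17:34969190-34972156 and Hspa1b (ENSMUSG00000090877) at chr17:34956436-34959238, 9.95 kb apart. Their upstream sequences are shown because these were the members that rose. The 250 bases before each start, from RefSeq on GRCm38.p6, minus strand, are given 5′ to 3′ with a match to the heat shock element half-array GAANNTTC in capitals, chr17:34972157-34972406 for Hspa1a and chr17:34959239-34959488 for Hspa1b.
Hspa1a: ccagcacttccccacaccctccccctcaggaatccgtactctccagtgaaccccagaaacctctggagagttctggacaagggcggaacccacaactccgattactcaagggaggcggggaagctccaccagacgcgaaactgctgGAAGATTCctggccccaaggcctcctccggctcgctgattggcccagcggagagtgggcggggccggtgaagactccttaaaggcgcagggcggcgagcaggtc
Hspa1b: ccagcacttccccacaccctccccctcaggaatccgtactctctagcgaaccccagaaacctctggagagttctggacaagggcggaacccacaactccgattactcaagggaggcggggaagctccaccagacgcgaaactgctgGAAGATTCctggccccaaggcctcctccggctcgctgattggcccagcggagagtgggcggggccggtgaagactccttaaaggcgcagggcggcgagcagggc
The sequences are identical at 247 of 250 bases, and the substitutions from Hspa1a to Hspa1b are C44T, T47C and T249G, counted from 1 at the 5′ end shown. In both, the match begins 104 bases before the start and is GAAGATTC. The coding sequences, of 1923 and 1926 bases, are 99.4% identical, whereas the parts of the transcripts after the stop codon, of 813 and 646 bases, are 44.1% identical in a global alignment.

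The promoter table held 6 of the 10 genes, with no entry for Hsf1, Hspa8, Hsp90aa1 and Hsp90ab1. Windows of 300 bases, from 250 before to 50 after each start, were searched on both strands for GAANNTTC or TTCNNGAA, each of which is its own reverse complement, and for the longer GAANNTTCNNGAA or TTCNNGAANNTTC, which contain the shorter ones. The shorter motifs were in 5 of the 6 genes, Dnajb1 being the exception, and in 16.97% of all 27025 genes of the table (15.1% of its 32851 windows). Among the 5, Hspa1a and Hspa1b hold the same match in nearly identical windows and are not independent. Dnaja1 had its match in 1 of its 3 windows. The longer motif was in Hsph1 alone and in 0.662% of all genes (0.603% of windows). The following stretches of 30 bases around 1 match in each of the other 3 genes, with the match in capitals, are shown to compare genes that hold such a motif and did not pass the test with the pair that did. They lie at chr5:149636279-149636308, minus strand, for Hsph1, chr4:40722336-40722365, plus strand, for Dnaja1 and chr9:21150083-21150112, minus strand, for Cdc37.
Hsph1: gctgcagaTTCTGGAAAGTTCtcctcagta
Dnaja1: agcctctaGAAAATTCtacgaggctcggga
Cdc37: gcgggaacTTCCAGAAggcctcaccacata
The Hsph1 match begins at base 16 or 37 of the transcript, depending on which of its 2 annotated starts is used. A match is a description of the letters, not evidence that HSF1 binds there.

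Totals ranged from 13187094 to 15366021 counts per library, so 1 CPM (a count scaled by the TMM-adjusted library size to a common total) is 13.0 to 15.5 counts. Across the genes tested, log2 CPM correlated at 0.996 to 0.997 between controls, 0.992 between the KO libraries and 0.985 to 0.988 across the groups, so the KO libraries stood further from each other than the controls did. Control replicate 3 held 1142 counts of 4 Y-linked genes, against 1 or 2 in each other library. It also held 547 CPM of the X-inactivation RNA Xist, against 788 to 1026 CPM in the other libraries. Erythroid markers summed to 68001 to 84003 CPM in controls and 61264 to 78761 CPM in KO, and none of the 11 found passed the test. Macrophage markers summed to 91.7 to 104 CPM in controls and 71.0 to 75.2 CPM in KO, with Cd163 at 0 in some libraries. Of 9 tested 3 were called lower, beside 1.83% of all genes tested. All 9 but Cd68 were below every control in both KO libraries, an arrangement found in 19.3% of all genes tested. Csf1r held a large part of the sum, at 45.5 to 53.3 CPM in controls and 42.5 and 40.0 CPM in KO. Summed hepatocyte markers, at 233 to 371 CPM and 274 to 325 CPM, overlapped between the groups with none called. So did summed myeloid, mast cell and megakaryocyte markers, at 506 to 699 CPM and 628 to 682 CPM, of which Mpo was the largest part. The megakaryocyte genes Pf4 and Itga2b were highest in KO replicate 2, at 20.9 and 57.5 CPM. They were at 9.29 to 10.4 and 28.7 to 33.0 CPM in controls and at 8.38 and 33.8 CPM in KO replicate 1. All genes of that list but Itga2b overlapped between the groups. In bulk samples fewer cells of a type and less RNA per cell cannot be told apart.

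The targeted gene was lower in the libraries labelled KO. Csnk2b had 186, 186 and 169 CPM in the controls and 112 and 95.6 CPM in KO, a log2 fold change of -0.80 ± 0.09 (SE, edgeR adjusted p = 0.0018).

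The comparison of KO with control cells asked how the chaperone genes differ when CK2 beta is deleted in blood cells. Of the 10 genes, Hspa1a and Hspa1b rose, none fell and 8 did not pass the edgeR test at an adjusted p of 0.05. At an unadjusted p of 0.05, 2 were higher and 1, Dnajb1, was lower, beside 14.3% and 9.48% of all genes tested, and with DESeq2 Dnajb1 fell. At the adjusted p, 5.15% of all 13000 genes tested rose and 1.83% fell. The median log2 fold change of the 10 was 0.08, beside 0.01 for all genes tested. When KO replicate 2 was left out, these medians were -0.04 and -0.01. Without Hspa1a and Hspa1b the median of the other 8 was 0.01, with values from -0.33 for Dnajb1 to 0.16 for Hsp90aa1. The groups did not overlap for 3 of the 10 genes, Hspa1a and Hspa1b above and Dnajb1 below, arrangements found in 21.9% and 19.3% of all genes tested and together in 41.2%. In edgeR the number that rose was 1 without control replicate 1 or 3, 0 without control replicate 2 and 4 without KO replicate 1. In the fits without control replicate 1, 2 and 3 and KO replicate 1 and 2, respectively, 2.20%, 1.86%, 3.10%, 22.0% and 4.79% of all genes tested were called. The share was 7.05% with RLE scaling, 1.37% with no filter on low counts, 7.51% with a stricter filter, 6.45% with DESeq2, 6.48% with limma-voom and 6.72% with the replicate number as a block.

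**Figure D1:**
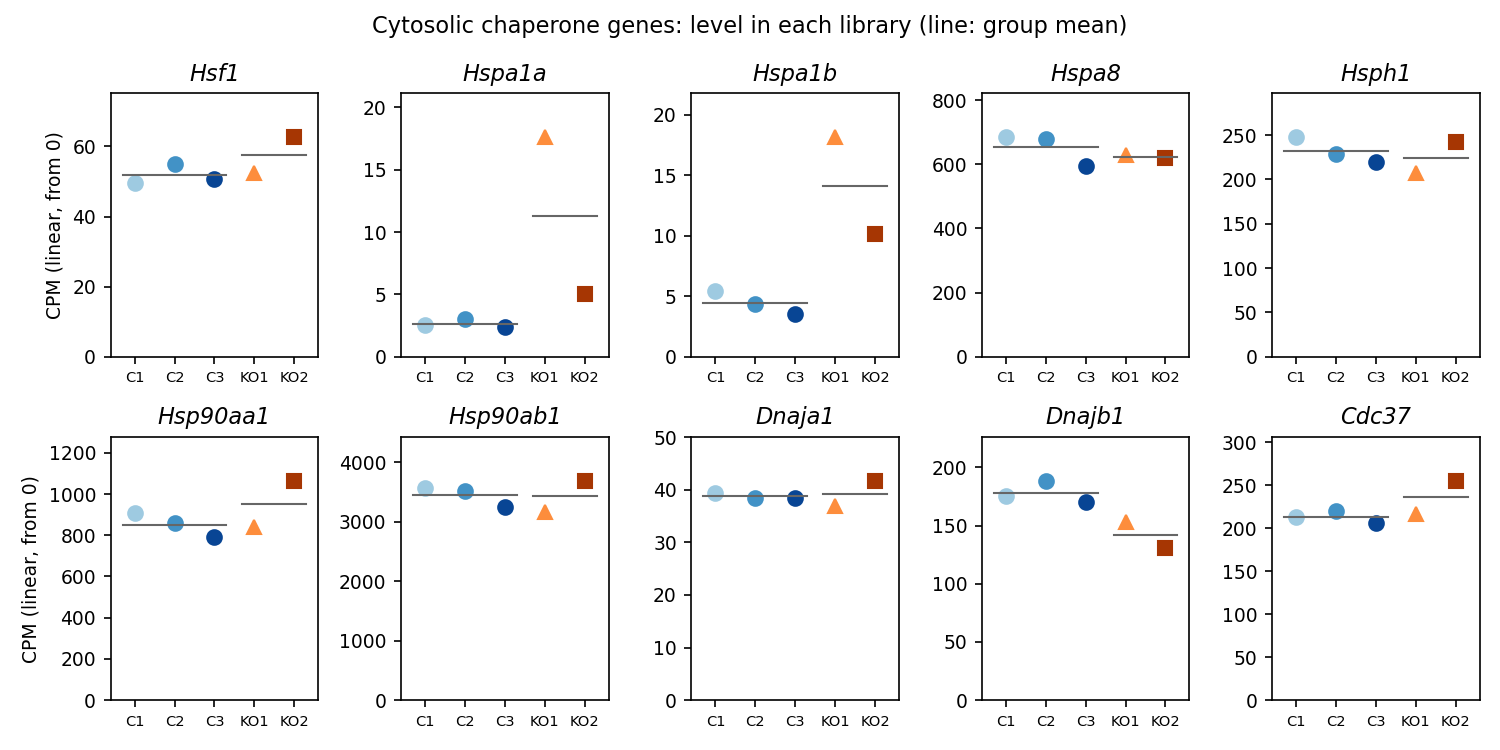
CPM of each of the 10 chaperone genes (y axis, linear from 0, own scale per panel) in control replicates 1 to 3 (C1 to C3) and KO replicates 1 and 2 (KO1, KO2), with a line at each group mean. Hspa1a and Hspa1b are highest in KO replicate 1, at 17.6 and 18.1 CPM, while Hsp90aa1, Hsf1 and Cdc37 are highest in KO replicate 2.

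The inducible HSP70 genes were the members that changed. Hspa1a had 40, 40 and 34 counts in control replicates 1, 2 and 3, which is 2.57, 3.05 and 2.36 CPM, and 229 and 78 counts in KO replicates 1 and 2, which is 17.6 and 5.05 CPM. Both KO libraries lay above all controls, and KO replicate 1 lay far above KO replicate 2. The rise was 4.20-fold, with a log2 fold change of 2.07 ± 0.45 (SE) and an edgeR adjusted p of 0.028. Hspa1b had 85, 57 and 51 counts in the controls, or 5.47, 4.34 and 3.54 CPM, and 236 and 156 in the KO libraries, or 18.1 and 10.1 CPM. It too was higher in both KO libraries than in any control, by 3.14-fold, with a log2 fold change of 1.65 ± 0.26 (SE) and an edgeR adjusted p of 0.0079. KO replicate 1 was again the higher of the KO libraries.

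Since the copies are nearly identical, part of their sequence cannot assign a read to one of them. Of the windows of 100 bases in the transcript, 56.5% in Hspa1a and 49.9% in Hspa1b also occurred in a transcript of another gene. Besides the other copy, these genes were Gm20481, Hspa1l and Gm10501, so the shares are upper limits for sequence common to the pair. With the counts of both genes added before the fit, the pair was at 8.04, 7.39 and 5.89 CPM in the controls and at 35.7 and 15.2 CPM in the KO libraries. The sum rose 3.55-fold, with a log2 fold change of 1.83 ± 0.31 (SE) and an edgeR adjusted p of 0.011, in a fit that called 6.97% of genes. Hspa1a made up 32.0%, 41.2% and 40.0% of the pair's counts in the controls and 49.2% and 33.3% in the KO libraries. These shares overlapped between the groups (two-sided exact permutation p = 0.7). The sources used here do not give how reads mapping to both genes were counted.

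The calls on the pair depended on single libraries and on the processing. Hspa1a missed the threshold without control replicate 1, 2 or 3 (edgeR adjusted p up to 0.12), and its log2 fold change lay between 0.91, without KO replicate 1, and 2.72, without KO replicate 2. Hspa1b missed it without control replicate 2 (edgeR adjusted p = 0.059), and its log2 fold change lay between 1.15 and 2.01 in the same order. The sum missed it without control replicate 1 (edgeR adjusted p = 0.052) or 2 (0.070) and lay between 1.07 and 2.32 in the same fits. With limma-voom on all libraries Hspa1a had a log2 fold change of 1.78 and missed the threshold (adjusted p = 0.070). None of the 3 passed in edgeR when no filter on low counts was used (adjusted p of 0.14, 0.066 and 0.085). The direction was the same in each of these fits.

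**Figure D2:**
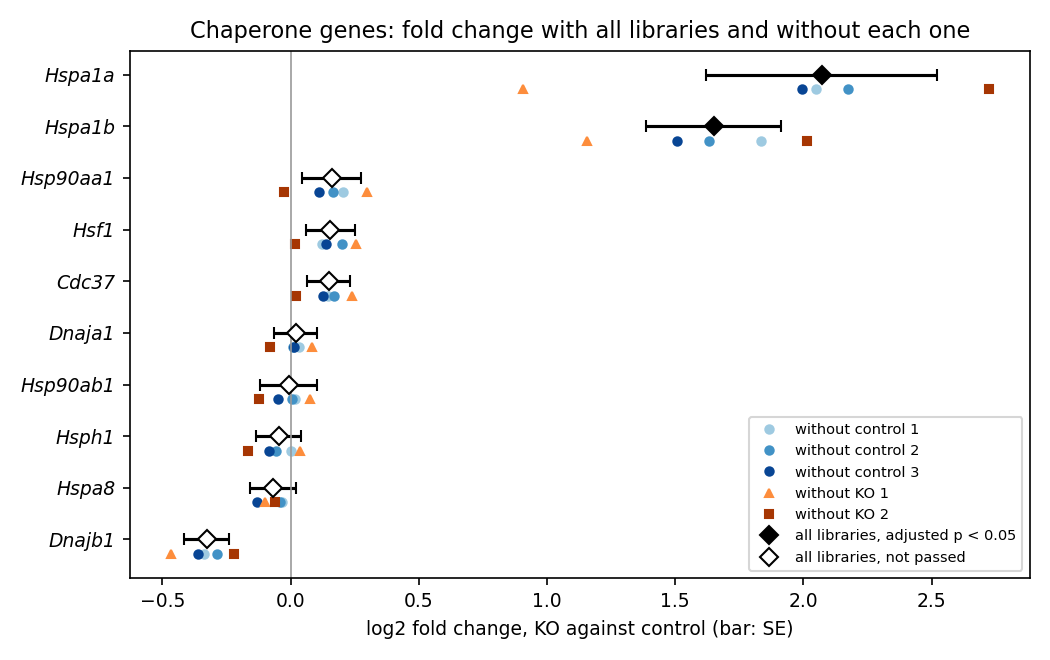
Log2 fold change of KO against control (x axis) for each chaperone gene: diamonds with SE bars use all 5 libraries, filled where the edgeR adjusted p is below 0.05, and small symbols leave out 1 library each. Hspa1a ranges from 0.91 to 2.72 and Hspa1b from 1.15 to 2.01 across the fits that leave out a library, all above 0, while Hsp90aa1, Hsp90ab1, Hsph1 and Dnaja1 fall on both sides of 0.

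The pair lies in the same stretch of chromosome 17 as the targeted gene. Hspa1a is 144 kb and Hspa1b 157 kb from Csnk2b, within the major histocompatibility complex. Of 165 genes tested within 5 Mb of Csnk2b, 29 rose and 3 fell, so 19.4% were called, beside 6.98% of all genes tested. Of the 11 tested genes between the pair and Csnk2b, 1 was called, the chloride channel gene Clic1 at a log2 fold change of 0.96, which was named after its values were seen. The nearest tested gene before the pair, 1110038B12Rik, had a log2 fold change of 0.32 ± 0.15 (SE, edgeR adjusted p = 0.22), and the nearest after it, Gm10501, stood at 5.53, 5.41 and 4.23 CPM in the controls and 4.84 and 5.25 CPM in KO. Hspa1l, the testis HSP70 gene that starts 546 bases beyond Hspa1a, had at most 2 counts in a library and was not tested. Gm20481, which overlaps Hspa1a on the opposite strand, was listed at 0 in all 5 libraries, and the sources used here do not say whether reads were counted by strand. The KO and control groups differ both in Csnk2b and in carrying a floxed allele on this chromosome, and effects of these cannot be told apart in this design.

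Immediate early genes are known to be induced within minutes by signals and by the handling of cells. Of 8 such genes 5 rose and none fell, beside 5.15% and 1.83% of all genes tested. The summed level of the 8 was 103 to 104 CPM in the controls, 207 CPM in KO replicate 1 and 154 CPM in KO replicate 2. KO replicate 1 thus held both the higher Hspa1 level and the higher summed immediate early level. Part of that sum is Dusp1, which did not pass, at 58.5 and 40.8 CPM in KO replicates 1 and 2. Junb alone was higher in KO replicate 2, at 13.0 and 15.6 CPM, and Atf3 was nearly level at 1.54 and 1.49 CPM. The part of handling in the Hspa1 rise was not tested. The genes whose profile over the 5 libraries was closest to that of the summed pair, by the root mean square difference of log2 CPM from the control mean among 8766 genes with a mean of at least 5 CPM and a symbol other than that of a predicted gene, were Ifih1, Parp9, Nrip3, Dtx3l and Trim21, with differences of 0.15, 0.16, 0.17, 0.18 and 0.19. Ifih1, which encodes the double-stranded RNA sensor MDA5, was at 16.99, 17.5 and 16.9 CPM in the controls and, in KO replicates 1 and 2, at 92.3 and 36.3 CPM. PARP9 and DTX3L form a complex of an ADP-ribosyltransferase and a ubiquitin ligase, and Trim21 encodes a cytosolic antibody receptor. Parp9 was at 103 and 47.8 CPM, Dtx3l at 113 and 49.4 CPM and Trim21 at 50.8 and 22.4 CPM in KO replicates 1 and 2. Since the 5 genes were chosen for their likeness to the pair in these same libraries, the order of their levels is fixed by the choice and is only a description.

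**Figure D3:**
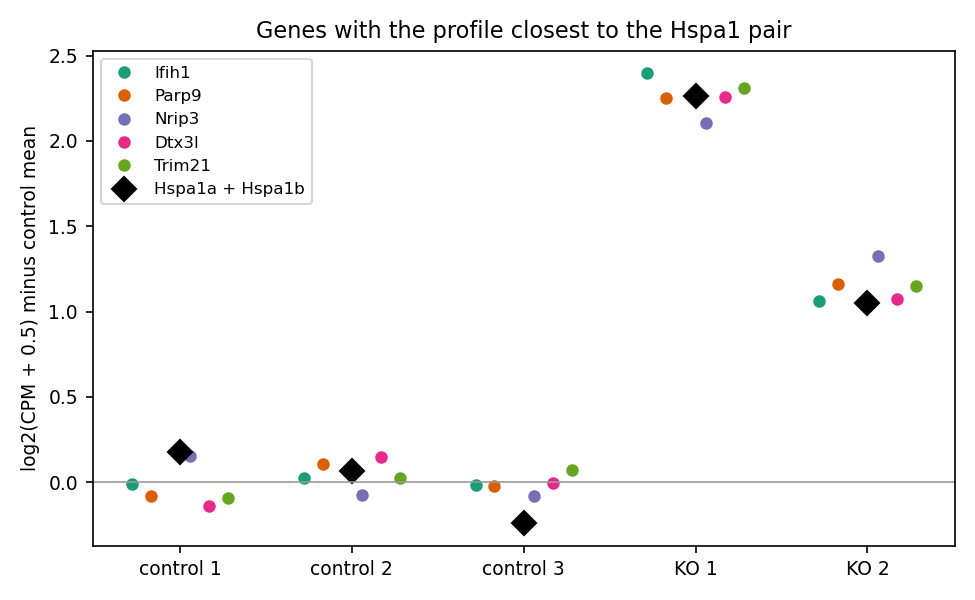
Log2(CPM + 0.5) minus the mean of the 3 controls (y axis) in each library (x axis) for the summed Hspa1a and Hspa1b (black diamonds) and the 5 genes with the closest profile (coloured points, offset sideways). The genes were chosen for this likeness, so the order they share with the pair, with KO replicate 1 above KO replicate 2 and both above the controls, is a description.

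The constitutive HSP70 gene Hspa8 and the HSP110 gene Hsph1 did not pass the test. Hspa8, the abundant housekeeping HSP70 known as HSC70, was at 684, 680 and 597 CPM in the controls and at 628 and 619 CPM in the KO libraries, so the groups overlapped. Its log2 fold change was -0.07 ± 0.09 (SE, edgeR adjusted p = 0.69). Hsph1, an HSP110 protein that releases nucleotide from HSP70, was at 247, 229 and 220 CPM in the controls and at 207 and 242 CPM in KO, with a log2 fold change of -0.05 ± 0.09 (SE, edgeR adjusted p = 0.80). KO replicate 1 was the lowest library for Hsph1 and KO replicate 2 lay within the controls. Together the inducible pair made up 1.16%, 1.08% and 0.978% of the counts of Hspa1a, Hspa1b and Hspa8 in the controls and 5.38% and 2.39% in KO replicates 1 and 2. The share was higher in both KO libraries (two-sided exact permutation p = 0.1, the smallest that 3 against 2 libraries allow, and 0.13 after Benjamini-Hochberg adjustment over the 4 shares computed). Hspa8 held the rest of these counts, which is most of them in each library.

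Neither HSP90 gene passed the test. Hsp90ab1, the constitutive HSP90 beta, was at 3572, 3521 and 3257 CPM in the controls and at 3174 and 3691 CPM in KO, which were the lowest and the highest of the 5 libraries. Its log2 fold change was -0.01 ± 0.11 (SE, edgeR adjusted p = 0.98). Hsp90aa1, the more inducible HSP90 alpha, was at 906, 859 and 792 CPM in the controls and at 841 and 1064 CPM in KO, with a log2 fold change of 0.16 ± 0.11 (SE, edgeR adjusted p = 0.43). KO replicate 1 lay among the controls and KO replicate 2 above them. Hsp90aa1 made up 20.2%, 19.6% and 19.6% of the counts of the HSP90 pair in the controls and 20.9% and 22.4% in the KO libraries, a difference of 1.86 percentage points (two-sided exact permutation p = 0.1). That share was higher in both KO libraries than in any control, and the difference was 1.14 points when KO replicate 2 was left out and 2.58 when KO replicate 1 was.

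The kinase cochaperone and the heat shock factor also did not pass. Cdc37 was at 213, 220 and 207 CPM in the controls and at 217 and 255 CPM in KO, a log2 fold change of 0.15 ± 0.08 (SE, edgeR adjusted p = 0.32). Hsf1 was at 49.6, 55.0 and 50.6 CPM in the controls and at 52.4 and 62.6 CPM in KO, a log2 fold change of 0.15 ± 0.10 (SE, edgeR adjusted p = 0.36). In both genes KO replicate 1 lay within the controls and KO replicate 2 above them. Without KO replicate 1, Cdc37 and Hsp90aa1 passed the threshold at log2 fold changes of 0.24 and 0.30 (edgeR adjusted p of 0.043 in each), in a fit where the lone KO library is assumed to vary like the controls and 22.0% of all genes were called. Without KO replicate 2 their log2 fold changes were 0.02 and -0.02.

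Of the J proteins, Dnajb1 was lower in both KO libraries but did not pass, and Dnaja1 overlapped. Dnajb1, a stress-inducible J protein that works with HSP70 in dissolving aggregates, was at 175, 188 and 170.1 CPM in the controls and at 153 and 131 CPM in KO. Its log2 fold change of -0.33 ± 0.09 (SE) had an edgeR adjusted p of 0.058. With DESeq2 the adjusted p was 0.023, over the alternatives it ranged from 0.0065 to 0.19, and the log2 fold change stayed negative in all of them. Dnaja1, a J protein with a farnesyl anchor, was at 39.4, 38.3 and 38.5 CPM in the controls and at 36.8 and 41.7 CPM in KO, with KO replicates 1 and 2 the lowest and the highest library. Dnajb1 made up 81.6%, 83.1% and 81.5% of the counts of these J protein genes in the controls and 80.6% and 75.8% in KO (two-sided exact permutation p = 0.1). Dnaja1 overlaps Smu1, Gm6297 and Mir207 on the genome. The sources used here do not give the strand setting, so the Dnaja1 count and this share may depend on how reads in the overlap were counted. Hspa1a and Hspa1b on the one hand and Dnajb1 on the other, all stress-inducible in textbook accounts, thus had fold changes of opposite sign.

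**Figure D4:**
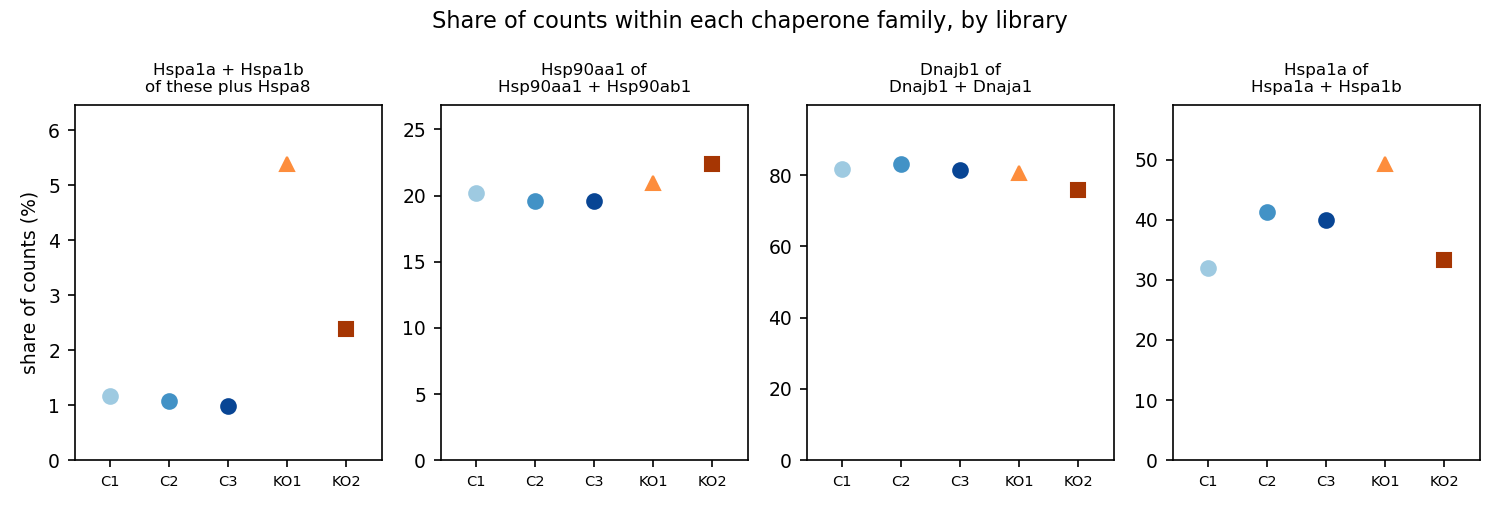
Share of counts (y axis, percent, from 0) held by the first-named genes within each family, in each of the 5 libraries (C1 to C3 control, KO1 and KO2 KO). The inducible HSP70 share is 0.978% to 1.16% in controls and 5.38% and 2.39% in KO, and the share of Hspa1a within the pair overlaps between the groups.

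Levels can be set against each other only per length. Divided by the length of the longest principal transcript, mean levels in the controls were 1369 ± 67.2 CPM per kb for Hsp90ab1, 273 ± 20.7 for Hspa8, 259.7 ± 17.4 for Hsp90aa1, 60.999 ± 3.72 for Hsph1, 59.4 ± 3.13 for Dnajb1, 27.1 ± 0.847 for Cdc37, 24.8 ± 1.38 for Hsf1, 6.89 ± 0.106 for Dnaja1, 1.59 ± 0.346 for Hspa1b and 0.897 ± 0.119 for Hspa1a (CPM per kb, SD, n = 3). Hspa8 and Hsp90aa1, Hsph1 and Dnajb1, and Cdc37 and Hsf1 overlapped over the control libraries, whereas the other neighbours in this order did not. Within every single control library, however, Hspa8 was above Hsp90aa1 and Cdc37 above Hsf1. Dnajb1 was above Hsph1 in control replicate 2 only, at 62.9 and 60.2 CPM per kb. In the KO libraries Hspa1a rose to 5.93 and 1.70 CPM per kb and Hspa1b to 6.47 and 3.61, beside 6.55 CPM per kb for Dnaja1 in KO replicate 1, or 4.27 with all annotated exons as its length. With all annotated exons as the length, Hspa8 was at 152 and Hsp90aa1 at 217 CPM per kb, and Hsph1 at 31.9 and Dnajb1 at 55.5, so the order within these pairs depends on the length used. Hsf1 moved the most, to 7.29 CPM per kb beside 26.0 for Cdc37, so the overlap of those genes also depends on it. Sequence shared with other genes also bears on the levels: 63.4% of the windows of 100 bases in Hspa8, 47.5% in Hsp90aa1 and 24.0% in Dnaja1 occurred in another gene's transcript, against 0 in Hsf1, Hsph1, Hsp90ab1, Dnajb1 and Cdc37.

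The wider chaperone network was examined in 9 lists with 86 genes, of which 85 were found and 77 tested. Across these 77 genes 4 rose, 1 fell and 72 did not pass the edgeR test, and 59 had a log2 fold change above 0. Over all genes tested 5.15% rose, 1.83% fell and 52.5% had a log2 fold change above 0. The calls among the 77 were thus near that background, while the share above 0 was higher than it. KO replicate 2 was the highest of the 5 libraries for 45 of the 77, beside 32.5% of all genes tested, a count taken after the values were seen. The median log2 fold change of the 77 was 0.08, beside 0.01 for all genes tested. Without KO replicate 2, list medians were -0.055 for TRiC and prefoldin, -0.059 for other HSF1 targets and -0.063 for other HSP70 and HSP110 genes. They were -0.024 for other J proteins and -0.027 for endoplasmic reticulum and mitochondrial paralogues, beside -0.013 for all genes tested. HSP70 cochaperones (0.030), HSP90 cochaperones (0.070), small heat shock proteins (0.48) and remaining heat shock factors (0.22) stayed above 0. The counts depend on the libraries: 1, 0 and 1 rose without control replicate 1, 2 and 3, and 15 rose without KO replicate 1. With no filter on low counts Dnajb2 alone was called.

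Among the other HSP70 and HSP110 genes, 5 of 8 were tested and 1 rose. Hspa2, an HSP70 best known from male germ cells, was at 3.99, 3.58 and 3.05 CPM in the controls and at 6.46 and 5.25 CPM in KO, with a log2 fold change of 0.72 ± 0.18 (SE, edgeR adjusted p = 0.046). Like Hspa1a and Hspa1b it was highest in KO replicate 1, at a low level in all libraries, and its call was lost in each fit without 1 control or without KO replicate 1 (edgeR adjusted p up to 0.16), with DESeq2 (adjusted p = 0.14), with the replicate block (edgeR adjusted p = 0.10) and with no filter on low counts (edgeR adjusted p = 0.12). Among 14 other cytosolic J proteins, 1 rose and 1 fell. Dnajb2, a J protein that hands ubiquitinated clients to the proteasome, was at 40.7, 42.6 and 44.6 CPM in the controls and at 76.2 and 60.3 CPM in KO, a log2 fold change of 0.68 ± 0.10 (SE, edgeR adjusted p = 0.0072). The groups were well apart, and the call was lost without control replicate 2 (edgeR adjusted p = 0.053). Dnajb4, a close relative of Dnajb1, was at 124, 114 and 116 CPM in the controls and at 100.5 and 89.6 CPM in KO. It fell by 0.31 ± 0.08 (SE) on the log2 scale, with an edgeR adjusted p of 0.0497 that was lost in each fit without 1 control or without KO replicate 2 (up to 0.18).

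Of 17 HSP90 cochaperones tested, 2 rose and none fell in edgeR, DESeq2 or limma-voom, beside 5.15% and 1.83% of all genes tested. The counts at an unadjusted p of 0.05 were 4 and 0, beside 14.3% and 9.48% of all genes tested. Fkbp5, an immunophilin which tunes steroid receptors on HSP90, was at 45.7, 41.998 and 42.9 CPM in the controls and at 56.1 and 68.9 CPM in KO, with a log2 fold change of 0.52 ± 0.10 (SE, edgeR adjusted p = 0.016). Fkbp8, a membrane-anchored immunophilin of mitochondria, was at 221, 267 and 291 CPM in the controls and at 335 and 437 CPM in KO, with a log2 fold change of 0.58 ± 0.14 (SE, edgeR adjusted p = 0.039). Both were highest in KO replicate 2. Fkbp5 missed the threshold in each fit without 1 control (edgeR adjusted p up to 0.088), and Fkbp8 in each fit without 1 control or without KO replicate 2 (up to 0.17). Of 9 HSP70 cochaperones none passed in edgeR. At an unadjusted p of 0.05, 2 were higher and none was lower, beside the same 14.3% and 9.48%. With DESeq2 1 rose and none fell, beside 6.45% of all genes tested called in either direction. The most abundant of them, Bag6, had 443.8 ± 20.9 CPM (SD, n = 3) in the controls and 496.7 ± 5.05 CPM (SD, n = 2) in KO, and lies 13.1 kb from Csnk2b. St13, the HSP70-interacting protein HIP, was at 158, 148 and 163 CPM in the controls and at 155 and 206 CPM in KO.

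No gene of the cytosolic chaperonin TRiC and of prefoldin, which fold actin and tubulin, passed in edgeR among 14 tested. Over all genes tested 6.98% were called. The count was also 0 with DESeq2 and limma-voom. It was 0 at an unadjusted p of 0.05 as well, beside 14.3% higher and 9.48% lower over all genes tested. The log2 fold changes of the 14 lay between -0.01 and 0.19, with a median of 0.07. That median was -0.05 when KO replicate 2 was left out. Tcp1 was at 713, 667 and 672 CPM in the controls and at 630 and 728 CPM in KO, and Cct7 at 534, 556 and 496 CPM and at 529 and 676 CPM. KO replicate 2 was the highest of the 5 libraries for 12 of these 14 genes and for 5 of the 10 chaperone genes, an arrangement found in 32.5% of all genes tested and singled out after the values were seen.

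Of 14 other HSF1 targets tested, none rose in edgeR, at an unadjusted p of 0.05 or with DESeq2, and 1, Dnajb4, fell. Over all genes tested 5.15% rose and 1.83% fell in edgeR, and 14.3% and 9.48% did at an unadjusted p of 0.05. With so few genes the counts do not set this list apart from all genes. The median log2 fold change of the 14 was 0.04, and -0.06 when KO replicate 2 was left out. Both tested genes of the remaining heat shock factors and HSF-binding proteins failed to pass: Hsf2 was at 8.43, 7.24 and 7.21 CPM in the controls and at 10.1 and 11.7 CPM in KO (log2 fold change 0.51 ± 0.14, SE, edgeR adjusted p = 0.062), and Hsbp1, which binds HSF1 trimers, had a log2 fold change of 0.20 ± 0.12 (SE, edgeR adjusted p = 0.36). The paralogues of the endoplasmic reticulum and the mitochondrion had no call in edgeR or DESeq2 among 10 tested, with 1 higher and 0 lower at an unadjusted p of 0.05. Hspa5, the endoplasmic reticulum HSP70 known as BiP, had a log2 fold change of -0.12 ± 0.08 (SE, edgeR adjusted p = 0.39), and Hspa9, the mitochondrial HSP70 mortalin, one of 0.30 ± 0.10 (SE, edgeR adjusted p = 0.11). Hspa9 was higher in both KO libraries, at 468 and 575 CPM against 402 to 437 CPM.

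Of 5 small heat shock proteins listed, 1 was tested: Hspb6, at 8.04, 10.2 and 9.02 CPM in the controls and 12.7 and 9.78 CPM in KO (log2 fold change 0.30 ± 0.16, SE, edgeR adjusted p = 0.29). Hspb2, Hspb8 and Cryab had at most 1, 8 and 3 counts in a library. Hspb1, for HSP27, was at 0 in all 5 libraries, which allows up to 0.195 to 0.227 CPM per library (3 counts, counting error only). Of the windows of 100 bases in its transcript 56.3% also occurred in 2 other genes, 1 of them named as its pseudogene, so a count of 0 may not be a level of 0. Hsf4, the lens heat shock factor, was also at 0.

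**Figure D5:**
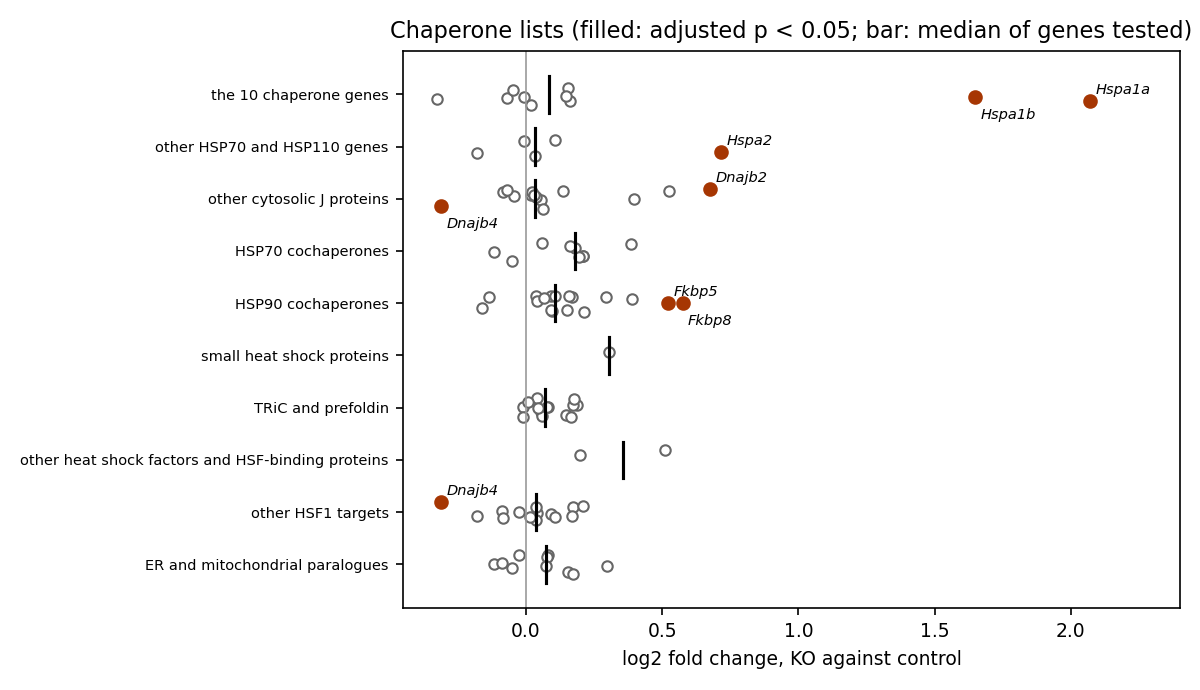
Log2 fold change of KO against control (x axis) for each tested gene of the 10 chaperone genes and of 9 lists (rows), filled and named where the edgeR adjusted p is below 0.05, with a bar at each list's median. Hspa1a and Hspa1b, at 2.07 and 1.65, lie apart from all others, of which the highest is Hspa2 at 0.72.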

How the data were processed

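The authors deposited whole-number read counts per Ensembl gene for 5 libraries, not normalised. Per the labels' protocols, mRNA of sorted TER119-positive cells was sequenced on an Ion Proton after preparation with an Ion Total RNA-Seq kit. The submitters' processing notes name cutadapt, STAR, Bowtie, HTSeq and build mm10. Versions, strand setting and handling of reads with several matches were not given in the sources used here.

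Symbols, coordinates and transcripts came from GENCODE M21 on GRCm38, the assembly of mm10 (37607 of 39179 identifiers matched). KO was tested against control with edgeR 4.0.16 in R 4.3.3 (quasi-likelihood test, TMM, filterByExpr, group only, Benjamini-Hochberg over all 13000 genes kept, threshold 0.05). The SE is the fold change divided by the square root of F. The steps were tested on simulated counts. Shares of counts were compared by an exact permutation test over libraries. Lengths are of the longest APPRIS principal transcript, and all annotated exons were tried instead, a choice made after seeing the data.

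Named were the 10 chaperone genes, Csnk2b, up to 3 called genes of each list with the smallest p or else its 2 most abundant, the 5 closest profiles and the pair's neighbours. The genes and lists were chosen with earlier results of these data known. Of the listed genes, Hspa14 and the erythroid marker Ahsp were not matched by symbol. Alternatives were RLE scaling, no filter, at least 5 CPM in 2 libraries, DESeq2 1.42.0, limma-voom (limma 3.58.1), the replicate number as a block and each library left out. No column was left out.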

Additional observations from a re-analysis of the deposited data

How the results depend on the processing

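Over 11 alternatives, 23 of 32 single genes followed kept their direction in all, Hspa1a, Hspa1b, Dnajb1, Hspa8, Hsf1 and Cdc37 among them. With no low-count filter the calls were 235 higher and 53 lower, in place of 669 and 238, 0 of the 10 chaperone genes rose, 1 gene of the wider lists rose and 0 fell, and the summed Hspa1 pair had a log2 fold change of 1.82 that no longer passed. More genes are tested there. With limma-voom 1 of the 10 rose (Hspa1b, while Hspa1a was lost), and with DESeq2 1 fell (Dnajb1). Dnajb4, the 1 gene of the wider lists that fell, was not called (0 fell) with limma-voom, the stricter filter or the replicate block. With limma-voom Gm10501 turned to 0.0084. The cause of these changes was not tested.

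Leaving out each library gave 210 to 1709 genes higher and 31 to 1247 lower, 0 to 4 of the 10 chaperone genes higher and 0 to 1 lower, 0 to 15 genes of the wider lists higher and 0 to 2 lower, and 1.07 to 2.32 for the summed pair. Among single genes that turned, the log2 fold change went from -0.17 to 0.037 for Hsph1, -0.024 to 0.30 for Hsp90aa1, -0.12 to 0.075 for Hsp90ab1, -0.079 to 0.082 for Dnaja1, -0.015 to 0.38 for St13, -0.12 to 0.068 for Tcp1, -0.0043 to 0.33 for Cct7, -0.0041 to 0.56 for 1110038B12Rik and -0.12 to 0.071 for Gm10501. In percentage points, the share of the Hspa1 pair with Hspa8 differed by 1.32 to 4.31, that of Hsp90aa1 by 1.14 to 2.58, that of Dnajb1 by -6.28 to -1.48 and that of Hspa1a in the pair by -4.41 to 11.5.

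The labels do not say that a replicate number marks a shared litter or day, and only 2 numbers are shared. Deviations from the group means correlated at 0.002 and 0.042 for the same-numbered pairs. With the replicate block 702 genes were higher and 171 lower, and Hspa1a and Hspa1b both rose (edgeR adjusted p of 0.0029 and 0.00019). In that fit control replicate 3 is alone in its block and adds nothing to the comparison, which rests on the 2 shared numbers. Little is then left to estimate the spread from, so the smaller p-values are not stronger support. Hspa1a and Hspa1b rest on 34 to 236 counts per library, which limits the precision of their fold changes.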
